A study of Rattus norvegicus with 30 samples.

Results

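This section follows 10 genes of the transforming growth factor beta (TGF-beta) pathway through microglia, the resident macrophages of the brain, after experimental stroke in male rats. They are the ligands Tgfb1, Tgfb2 and Tgfb3, the receptors Tgfbr1 and Tgfbr2, the signal carriers Smad2, Smad3 and Smad4, the inhibitory Smad7 and the secreted matrix protein Tgfbi. A gene was taken where the array platform's annotation gave its symbol, and where several probe sets carried it, the brightest by mean over the 30 arrays would stand for it. Of the 10 genes, 9 had a probe set, and each of these had 1. Tgfbr2 had none under its symbol and was not analysed here. Tgfb2 stayed below the filter on dim probe sets, so 8 genes were tested among 11675 genes in all. The rule used no difference between groups, but the genes were chosen with earlier results of these data known.

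TGF-beta ligands are secreted in a latent form that has to be released before it can bind. The active ligand joins type 2 and type 1 receptors on the cell surface, and the type 1 receptor phosphorylates Smad2 and Smad3, which enter the nucleus together with Smad4 and act on target genes. Smad7 is induced by the signal and blocks it at the receptor. In the brain, TGF-beta is known for keeping microglia in their mature resting state.

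A stroke was made by occluding the middle cerebral artery with a filament for 75 min under 1.2% isoflurane and reopening it. Microglial RNA came from rats of 3 or 12 months, on day 3 or day 14 after the stroke, from the injured (ipsilateral) or the opposite (contralateral) hemisphere, or from sham controls of each age, in 10 groups of 3 arrays. The study asked how the microglial response changes between these days and whether age alters it. The labels name the strain as Wistar Kyoto in the sample characteristics and as spontaneously hypertensive in the protocols. Hemispheres that share age, day and replicate number were taken as 1 animal, which gave 12 animals. No label states that sham replicates are different animals, so p-values against sham measure the spread between these samples, which may be technical. The hemisphere of the sham samples and the way microglia were isolated are not given in the sources used here.

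Values are log2 signals of 1 array as the authors deposited them, so that a difference of 1 is a 2-fold difference in signal, and levels of different genes cannot be compared. A change is 1 group mean minus another, with 3 arrays in each, ± the standard error of limma's model of all 30 arrays, and a gene was called at a Benjamini-Hochberg adjusted p under 0.05 over all genes tested. Array medians lay at 5.06 to 5.24. After stroke at 3 months the SD over an array was 1.79 to 1.93, and elsewhere 1.94 to 2.05, so values of 3-month stroke arrays against sham are also given after quantile normalization for each gene called with or without it, since it removes that gap. A number in the sample codes, of unknown meaning, also differs between these groups and cannot be told apart from the comparison. The 9 microglia markers tested were measured on every array, and none lay at or below the 30th percentile of any array. Their mean log2 level was 9.88 to 10.39 on ipsilateral arrays and 10.48 to 10.92 on contralateral and sham arrays. The RNA is from bulk samples, so fewer cells of a type and less RNA per cell cannot be told apart.

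Between the hemispheres, the tested genes moved in both directions. Smad7 and Tgfbr1 were lower in injured-side microglia, Smad7 in each of the 4 comparisons and Tgfbr1 in 3. Smad2 was called, lower, at 3 months on day 3. Tgfb1 was higher on day 14 at both ages, and Tgfbi was higher on day 3 at 3 months. Of the 8 tested genes, 4 were called at 3 months on day 3, 1 higher and 3 lower, where 20.4% of all genes were called, 11.5% higher and 8.95% lower. On day 14 at 3 months 2 were called, 1 in each direction, beside 20.3% of all genes (13.2% higher, 7.09% lower). At 12 months on day 3, 2 were called, both lower, beside 28.7% of all genes (18.7% higher, 10.0% lower). At 12 months on day 14, 2 were higher and 2 lower, beside 16.8% of all genes (10.9% higher, 5.94% lower).

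**Figure D1:**
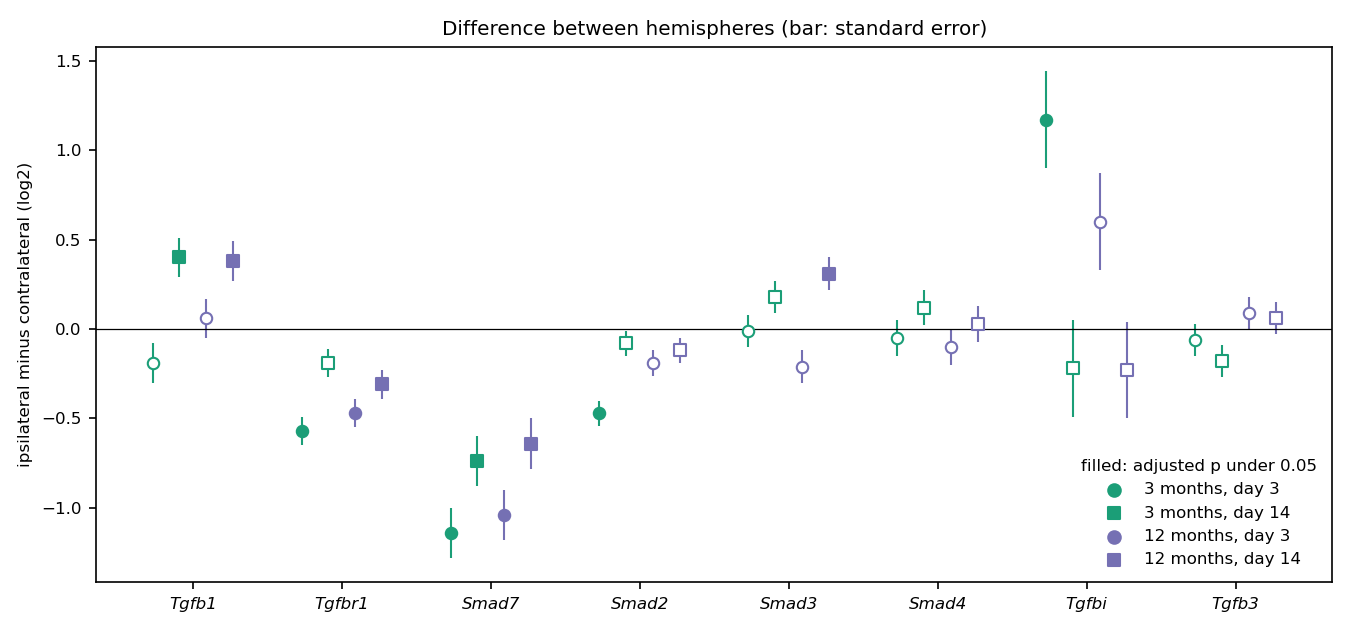
Ipsilateral minus contralateral log2 signal of the 8 tested TGF-beta genes, in 4 comparisons by age and day. Points are differences of 2 means of 3 arrays, bars are limma's standard errors, and filled points have an adjusted p under 0.05. Smad7 lies between -1.14 and -0.64 in each comparison, while Smad4 lies between -0.10 and 0.12 with open points throughout.

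Tgfb1, the TGF-beta ligand of myeloid cells, had a signal above the dim range on each array, unlike the other 2 ligand genes. At 3 months on day 14 its log2 signals were 9.93, 9.88 and 10.01 on the ipsilateral arrays and 9.57, 9.44 and 9.62 on the contralateral arrays, in the order of animals 1 to 3. The 12-month signals of day 14 were 9.97, 10.20 and 9.91 against 9.51, 9.67 and 9.75. The ipsilateral arrays lay above the contralateral arrays without overlap at both ages. The rise was 0.40 ± 0.11 (adjusted p = 0.010, 1.32-fold) at 3 months and 0.38 ± 0.11 (adjusted p = 0.016, 1.30-fold) at 12 months. The call at 3 months was lost without contralateral array 2 (0.35, adjusted p = 0.051), and that at 12 months without contralateral array 1 (0.31, adjusted p = 0.098) or ipsilateral array 2 (0.30, adjusted p = 0.11).

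On day 3 the hemispheres overlapped in Tgfb1. The 3-month signals were 9.41, 9.16 and 9.57 ipsilateral and 9.77, 9.28 and 9.67 contralateral, and the 12-month signals 9.75, 9.85 and 9.81 against 9.71, 9.83 and 9.69. The differences were -0.19 (95% interval -0.42 to 0.04, adjusted p = 0.26) and 0.06 (-0.17 to 0.29, adjusted p = 0.75). At 3 months this comparison rested on contralateral array 2, since without it the difference was -0.34 ± 0.11 (adjusted p = 0.029). Sham arrays held 9.46, 9.53 and 9.61 at 3 months and 9.77, 9.70 and 9.50 at 12 months, close to the span of the contralateral arrays of the same age. On day 14 the ipsilateral arrays also stood above sham without overlap, by 0.41 ± 0.11 (adjusted p = 0.0049; 0.63 after quantile normalization) and 0.37 ± 0.11 (adjusted p = 0.018). The 12-month call against sham was lost without sham array 3 (0.29, adjusted p = 0.12) or ipsilateral array 2 (0.28, adjusted p = 0.12).

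The other ligands gave no change to report. Tgfb2 lay between 3.61 and 4.10 on all 30 arrays, each time at or below that array's 30th percentile (4.07 to 4.35), and was not tested. Tgfb3 lay between 3.84 and 4.33 and at or below the percentile on 27 arrays. It passed the filter through 3 arrays of the 12-month day 3 groups, and it was called in no comparison, with hemisphere differences of -0.18 to 0.09. A change in so dim a probe set may not be detectable.

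The stretch of 250 bases before the RefSeq start of Tgfb1, Tgfbr1 and Tgfbi is printed here because these are the ligand, the receptor and the target gene whose signals differed between hemispheres in at least 1 comparison. The sequences are from the RefSeq assembly GRCr8, each 5′ to 3′ along its gene's own strand. Capitals mark GGGCGG, the GC box that Sp1-type factors bind, or its reverse complement CCGCCC. The Tgfb1 window is chr1:90324062-90324311 (plus strand), the Tgfbr1 window chr5:66449148-66449397 (plus strand) and the Tgfbi window chr17:7990114-7990363 (minus strand).
Tgfb1: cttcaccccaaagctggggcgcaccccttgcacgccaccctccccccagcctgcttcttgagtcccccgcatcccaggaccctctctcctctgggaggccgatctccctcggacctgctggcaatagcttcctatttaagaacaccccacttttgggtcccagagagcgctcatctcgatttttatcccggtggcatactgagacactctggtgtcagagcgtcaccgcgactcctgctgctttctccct
Tgfbr1: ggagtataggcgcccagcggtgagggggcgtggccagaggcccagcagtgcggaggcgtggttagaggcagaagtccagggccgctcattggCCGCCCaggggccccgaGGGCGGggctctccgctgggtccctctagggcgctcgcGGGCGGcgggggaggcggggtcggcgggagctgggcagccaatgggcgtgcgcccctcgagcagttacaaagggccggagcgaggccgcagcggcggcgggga
Tgfbi: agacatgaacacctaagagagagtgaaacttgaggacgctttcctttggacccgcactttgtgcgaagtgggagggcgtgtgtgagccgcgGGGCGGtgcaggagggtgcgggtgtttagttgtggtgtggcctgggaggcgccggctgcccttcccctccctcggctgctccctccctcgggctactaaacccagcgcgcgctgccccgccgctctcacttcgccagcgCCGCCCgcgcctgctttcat

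Tgfbr1 held 3 GC boxes, Tgfbi 2 and Tgfb1 0, where 32.4% of 27457 promoter windows of that length held at least 1. Both strands were also searched for CAGAC, the short Smad-binding letters, and for TGANTCA, the AP-1 site. None of the 10 genes had either in its window, against 42.8% of all windows for CAGAC and 6.36% for TGANTCA. The motifs do not overlap each other in letters. A match or its lack describes these letters in this window only.

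Tgfbr1, the type 1 receptor kinase that phosphorylates Smad2 and Smad3, was lower in the injured hemisphere on day 3. At 3 months its log2 signals on day 3 were 10.05, 9.89 and 9.84 ipsilateral and 10.62, 10.37 and 10.51 contralateral. At 12 months they were 10.46, 10.48 and 10.40 against 11.00, 10.83 and 10.91. Every ipsilateral array lay below every contralateral array. Tgfbr1 fell by 0.57 ± 0.08 at 3 months (adjusted p = 7.4e-06, 1.49-fold lower) and by 0.47 ± 0.08 at 12 months (adjusted p = 7.8e-05, 1.38-fold lower).

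On day 14 the gap in Tgfbr1 was smaller in value. Signals were 10.42, 10.41 and 10.33 ipsilateral against 10.55, 10.56 and 10.61 contralateral at 3 months, and 10.59, 10.64 and 10.80 against 10.84, 11.05 and 11.07 at 12 months. The arrays again did not overlap. The difference was -0.19 ± 0.08 at 3 months (adjusted p = 0.12) and reached -0.39 (adjusted p = 0.00031) after quantile normalization. At 12 months Tgfbr1 fell by 0.31 ± 0.08 (adjusted p = 0.0091), a call lost without contralateral array 3 (-0.27, adjusted p = 0.058), without ipsilateral array 1 (-0.27, adjusted p = 0.063) or with a model of the compared arrays only (adjusted p = 0.064). Over the animals, Tgfbr1 was lower on the injured side in 12 of 12, with differences of -0.67 to -0.13.

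Ordered by group mean, Tgfbr1 was highest in 12-month contralateral arrays of day 14 (10.99), 3-month sham (10.98), 12-month sham (10.97) and 12-month contralateral arrays of day 3 (10.91), groups whose arrays overlapped. Below a gap came 12-month ipsilateral arrays of day 14 (10.67), the 3-month contralateral groups of day 14 (10.57) and day 3 (10.50), 12-month ipsilateral arrays of day 3 (10.45) and 3-month ipsilateral arrays of day 14 (10.39), each overlapping its neighbour in this order. Ipsilateral arrays of 3 months and day 3 lay lowest (9.93) and overlapped no other group.

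**Figure D2:**
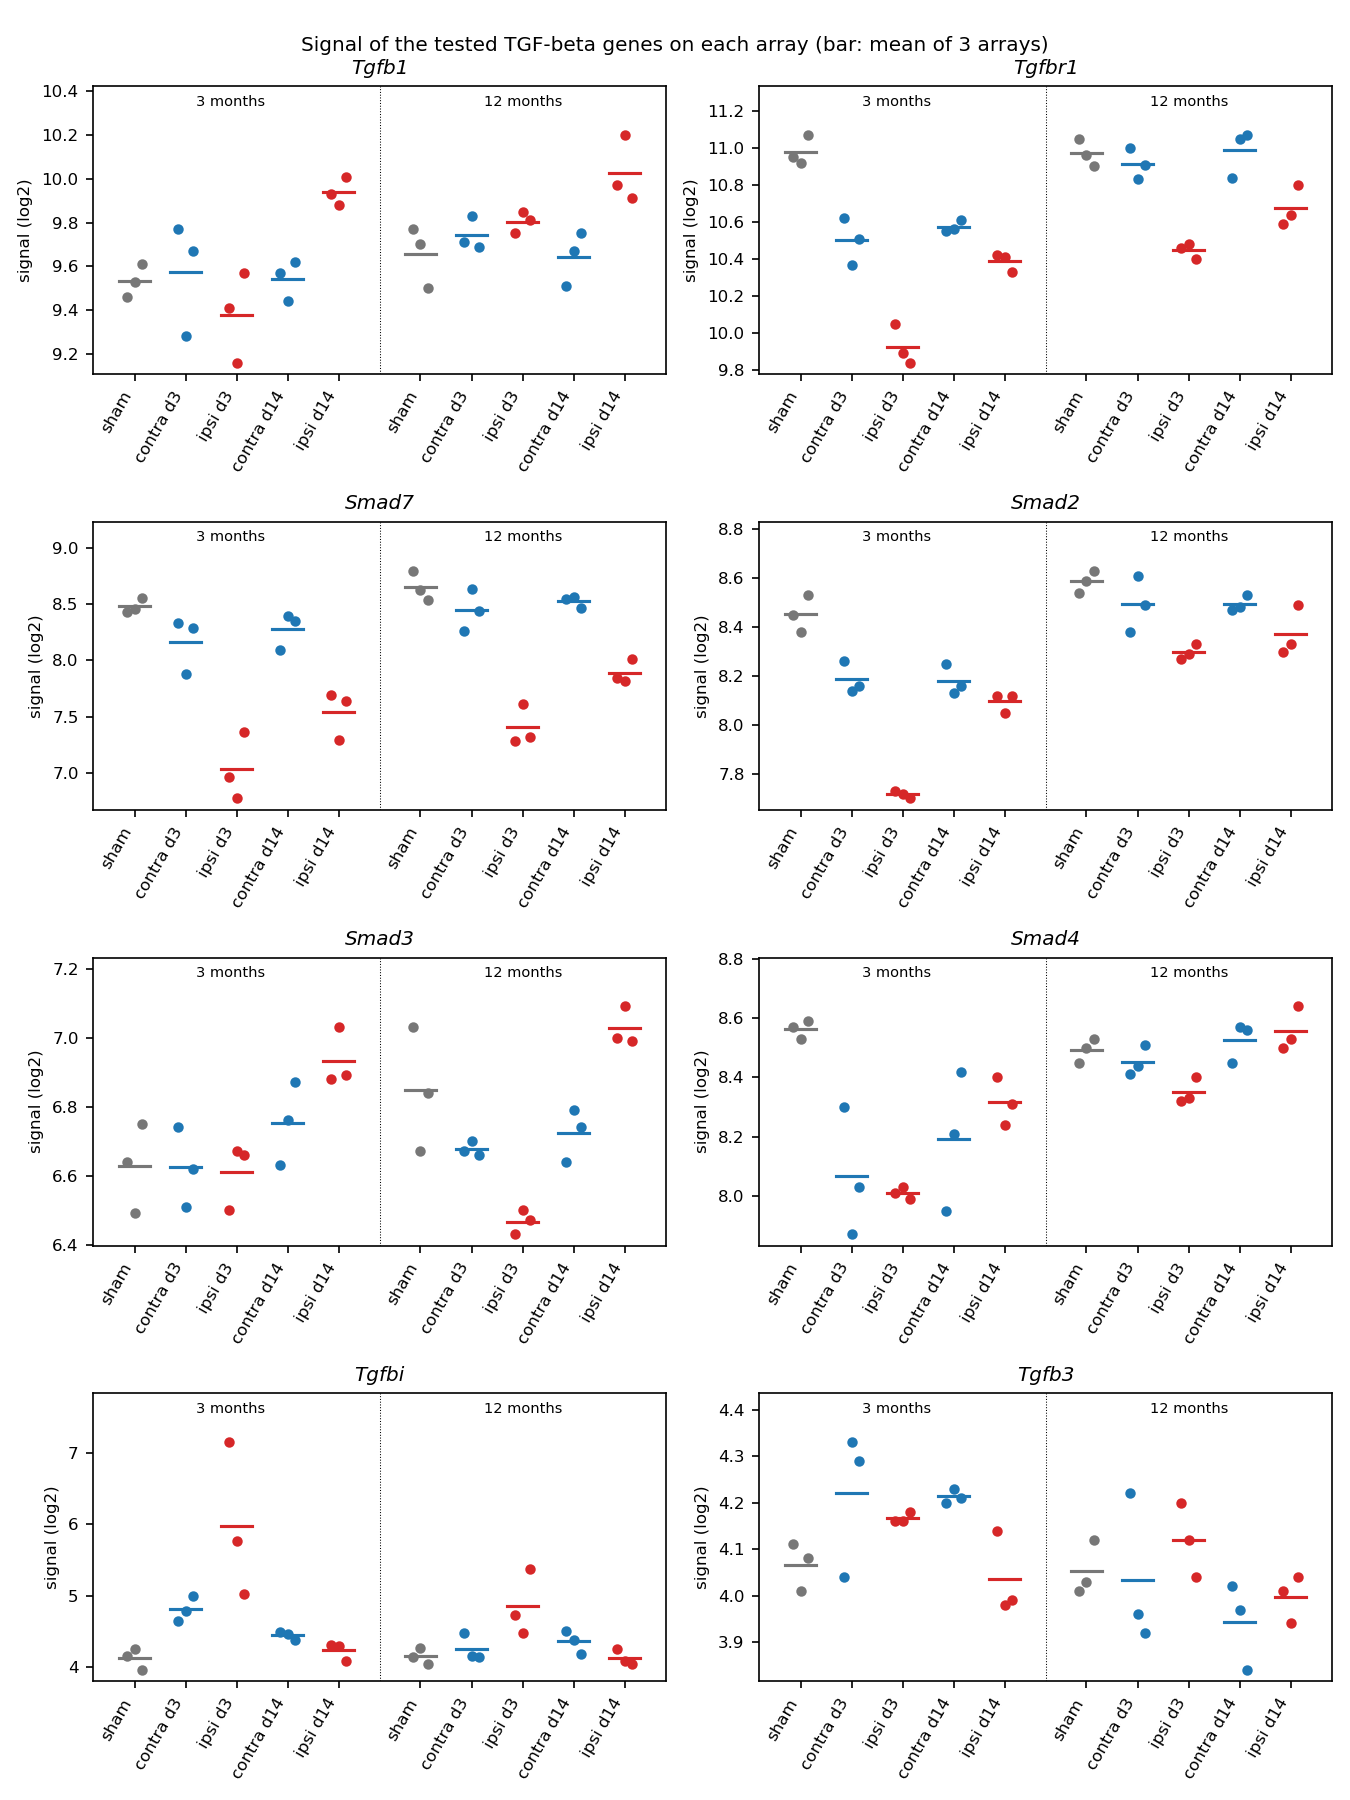
Log2 signal of each tested gene on each of the 30 arrays (points) with the mean of 3 arrays (bars), 1 panel per gene, sham in grey, contralateral in blue and ipsilateral in red, 3 months left and 12 months right of the dotted line. Axes differ between panels and do not start at 0. Smad7 and Tgfbr1 show the ipsilateral points below the contralateral points of the same age and day, and Tgfbi shows 3-month ipsilateral points of day 3 spread from 5.02 to 7.15.

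Smad2, the receptor-regulated Smad of the TGF-beta branch, fell by 0.47 ± 0.07 at 3 months on day 3 (adjusted p = 1.8e-05, 1.39-fold lower). The ipsilateral log2 signals were 7.73, 7.72 and 7.70 and the contralateral signals 8.26, 8.14 and 8.16, far apart beside the spread within each group. In the other 3 comparisons Smad2 was not called. At 12 months on day 3 the arrays held 8.27, 8.29 and 8.33 against 8.38, 8.61 and 8.49, without overlap, and the difference was -0.19 ± 0.07 (adjusted p = 0.051). This value sits at the threshold, since quantile normalization gave -0.31 (adjusted p = 0.0019), and leaving out contralateral array 1 gave -0.25 (adjusted p = 0.023). On day 14 the differences were -0.08 (95% interval -0.24 to 0.07) at 3 months and -0.12 (-0.27 to 0.03) at 12 months. The sign was the same in every animal, since Smad2 was lower on the injured side in 12 of 12, with differences of -0.53 to -0.03.

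Smad3, the partner of Smad2 that binds DNA, went the other way on day 14. Its log2 signals of 12 months and day 14 were 7.00, 7.09 and 6.99 ipsilateral and 6.64, 6.79 and 6.74 contralateral, and it rose by 0.31 ± 0.09 (adjusted p = 0.017, 1.24-fold). The call was lost after quantile normalization (0.26, adjusted p = 0.055) and without contralateral array 1 (0.27, adjusted p = 0.085) or ipsilateral array 2 (0.27, adjusted p = 0.073). At 12 months on day 3 the signals were lower on the injured side, at 6.43, 6.50 and 6.47 against 6.67, 6.70 and 6.66, without overlap (-0.21 ± 0.09, adjusted p = 0.090; -0.24, adjusted p = 0.048 after quantile normalization). At 3 months the hemisphere difference was -0.01 (95% interval -0.20 to 0.17) on day 3 and 0.18 (-0.01 to 0.36) on day 14.

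Smad4, the common partner of the activated Smads, was not called between hemispheres. Its differences were -0.05, 0.12, -0.10 and 0.03 in the order 3 months days 3 and 14, then 12 months days 3 and 14. The 95% intervals reached down to -0.30 (12 months, day 3) and up to 0.32 (3 months, day 14). The contralateral 3-month arrays varied more than the rest, with 8.30, 7.87 and 8.03 on day 3 and 7.95, 8.21 and 8.42 on day 14.

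Smad7, the inhibitory Smad that TGF-beta itself induces, had the widest hemisphere gap of the Smads. On day 3 its log2 signals were 6.96, 6.77 and 7.36 ipsilateral and 8.33, 7.88 and 8.29 contralateral at 3 months. The 12-month signals of day 3 were 7.28, 7.61 and 7.32 against 8.26, 8.64 and 8.44. No ipsilateral array reached the lowest contralateral array of its age. Smad7 fell by 1.14 ± 0.14 (adjusted p = 3.4e-07, 2.20-fold lower) at 3 months and by 1.04 ± 0.14 (adjusted p = 8.2e-07, 2.06-fold lower) at 12 months.

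On day 14 Smad7 was still lower on the injured side. The signals were 7.69, 7.29 and 7.64 ipsilateral against 8.09, 8.40 and 8.35 contralateral at 3 months, and 7.84, 7.82 and 8.01 against 8.55, 8.57 and 8.47 at 12 months. The groups did not overlap at either age. Smad7 fell by 0.74 ± 0.14 (adjusted p = 0.00018) and by 0.64 ± 0.14 (adjusted p = 0.0011). All 12 animals had less Smad7 signal on the injured side, with differences of -1.37 to -0.40. These 4 calls held in every alternative run, among them each array left out in turn, quantile normalization and the animal as a block. A lack of overlap alone was common on these arrays and held for 29.8% of all genes at 3 months on day 14 and for 45.9% at 12 months on day 3.

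In order of group mean, the Smad7 levels of sham and contralateral groups ran from 8.66 in 12-month sham through 8.53, 8.48, 8.45 and 8.28 down to 8.17 in 3-month contralateral arrays of day 3, with each neighbour overlapping the next. The ipsilateral groups followed with 7.89 (12 months, day 14), 7.54 (3 months, day 14), 7.40 (12 months, day 3) and 7.03 (3 months, day 3). Among these, the 12-month and the 3-month arrays of day 14 did not overlap, and the remaining neighbours did.

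Tgfbi encodes a secreted matrix protein first known as a gene that TGF-beta induces. At 3 months on day 3 its log2 signals were 7.15, 5.76 and 5.02 ipsilateral and 4.64, 4.79 and 5.00 contralateral. The ipsilateral arrays spread widely, and the lowest of them lay just above the highest contralateral array. The rise was 1.17 ± 0.27 (adjusted p = 0.0021, 2.25-fold), and without ipsilateral array 1 it was 0.58 ± 0.19 (adjusted p = 0.031). A model of the compared arrays only gave an adjusted p of 0.059. At 12 months on day 3 the signals were 4.73, 4.48 and 5.37 against 4.48, 4.16 and 4.14, a difference of 0.60 ± 0.27 (adjusted p = 0.11) that a model of the compared arrays only called (adjusted p = 0.022).

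By day 14 Tgfbi was near the dim range on both sides. The ipsilateral arrays held 4.31, 4.30 and 4.09 at 3 months and 4.26, 4.09 and 4.04 at 12 months. The contralateral arrays held 4.49, 4.47 and 4.38 at 3 months and 4.51, 4.38 and 4.19 at 12 months, each above its 30th percentile. On day 14 every animal had less Tgfbi signal on the injured side. The differences were -0.22 ± 0.27 (adjusted p = 0.635) and -0.23 ± 0.27 (adjusted p = 0.657), neither of them called. Sham arrays held 4.15, 4.26 and 3.96 and 4.14, 4.27 and 4.04. Over all 30 arrays, 7 Tgfbi values lay at or below the 30th percentile, so differences among these groups have little room to show.

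Markers of monocytes and macrophages stood high on the same arrays as Tgfbi. Of the 16 listed markers 14 were tested, since Emilin2 had no probe set and Ly6c lay below the filter. Their mean log2 level on the 3-month ipsilateral arrays of day 3 was 8.28, 7.64 and 7.20, in the same order as the Tgfbi signals of 7.15, 5.76 and 5.02. On 12-month ipsilateral arrays of day 3 it was 7.68, 7.63 and 7.90, and there too the array with the highest marker level had the highest Tgfbi. On day 14 the level was 6.41 to 6.99 on ipsilateral arrays, and on contralateral and sham arrays it was 6.02 to 6.36. The 11 neutrophil markers averaged 6.02 to 6.54 on 3-month ipsilateral arrays of day 3, 5.41 to 5.90 on the contralateral ones and 5.46 to 6.31 in sham, and at 12 months on day 3 they averaged 5.70 to 6.06 against 5.52 to 5.63. The 6 tested of 10 markers of T, NK and B cells averaged 4.85 to 4.94 against 4.63 to 4.70 at 3 months on day 3. The same arrays had lower microglia marker levels, as given above. The part of these cells in the Tgfbi difference was not tested, and the same holds for the other genes here.

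**Figure D3:**
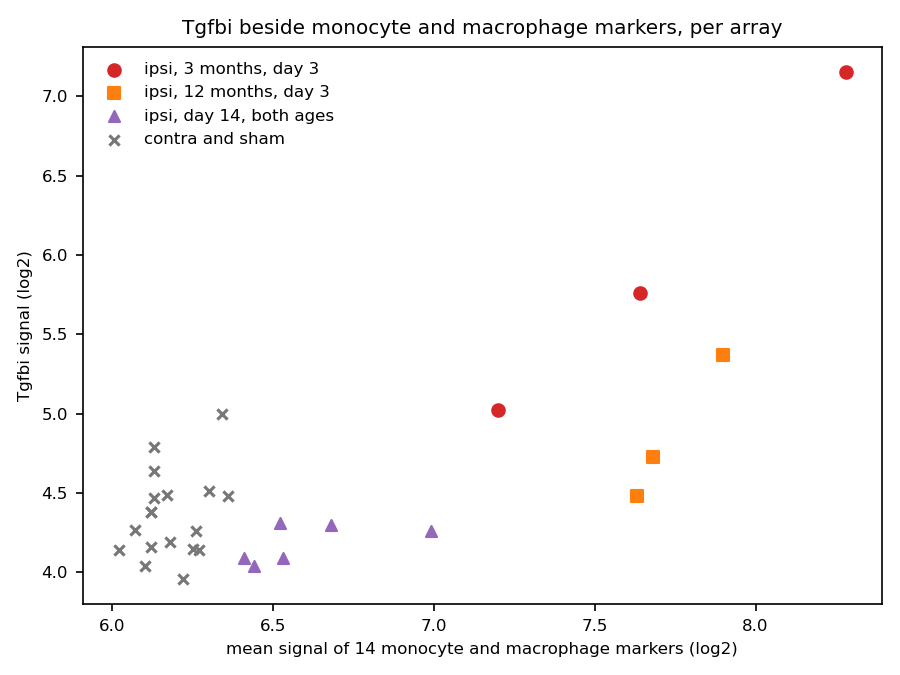
Tgfbi log2 signal (vertical axis) against the mean log2 signal of 14 monocyte and macrophage markers (horizontal axis), 1 point per array. The 3-month ipsilateral arrays of day 3 hold Tgfbi at 5.02 to 7.15 and marker means of 7.20 to 8.28, the 12-month ones at 4.48 to 5.37 overlap the lowest of them, and ipsilateral arrays of day 14 lie with the contralateral and sham arrays in Tgfbi but at higher marker levels.

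Set against sham, injured-side microglia had lower Smad7, Tgfbr1 and Smad2 at both ages and on both days. Of the 8 tested genes, 5 were called at 3 months on day 3 (56.8% of all genes were called), 6 on day 14 (34.4%), 5 at 12 months on day 3 (37.1%) and 4 on day 14 (20.0%). Smad7 fell in each, with changes of -1.45, -0.94, -1.25 and -0.77, each ± 0.14. Tgfbr1 fell too, at -1.06, -0.60, -0.52 and -0.30, each ± 0.08, and the last of these was not called without sham array 1 (adjusted p = 0.065) or ipsilateral array 1 (adjusted p = 0.074). The ipsilateral arrays of both genes lay below all sham arrays of their age, while 61.2%, 46.5%, 53.3% and 36.3% of all genes had no overlap in these comparisons. Smad2 fell at -0.74, -0.36, -0.28 and -0.21, each ± 0.07. At 3 months after quantile normalization Smad7 stood at -1.11 and -0.75 and Tgfbr1 at -0.91 and -0.56, all called, and Smad2 on day 3 at -0.37 (adjusted p = 0.00013). The Smad2 value at 3 months on day 14 was -0.15 (adjusted p = 0.13) after quantile normalization, and the value at 12 months on day 14 (adjusted p = 0.042) was called in 1 of 6 fits without an array. These comparisons share their sham arrays with those of the opposite hemisphere, so they are given side by side only.

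Smad3 was higher than sham in 3-month ipsilateral arrays of day 14 (0.31 ± 0.09, adjusted p = 0.0089; 0.42 after quantile normalization) and lower in 12-month ipsilateral arrays of day 3 (-0.38 ± 0.09, adjusted p = 0.0012). The 3-month value was lost without sham array 2 (0.24, adjusted p = 0.071) or ipsilateral array 2 (0.26, adjusted p = 0.057). The 12-month sham arrays of Smad3 were 7.03, 6.67 and 6.84 and spread more than the ipsilateral arrays, at 6.43, 6.50 and 6.47. On day 3 at 3 months Smad3 stood at -0.02 (adjusted p = 0.90) and Tgfb1 at -0.15 (adjusted p = 0.25), and after quantile normalization at 0.22 (adjusted p = 0.047) and 0.19 (adjusted p = 0.12). Smad4 fell at 3 months, at -0.55 ± 0.10 on day 3 and -0.25 ± 0.10 on day 14, and neither was called after quantile normalization (-0.18 and -0.05). The day 14 value (adjusted p = 0.049) was called in 1 of 6 fits without an array. At 12 months on day 3 Smad4 stood at -0.14 ± 0.10 (adjusted p = 0.26), and quantile normalization called it lower (-0.30, adjusted p = 0.0085). Tgfbi rose by 1.85 ± 0.27 at 3 months on day 3 (adjusted p = 1.3e-06; 1.88 after quantile normalization) and by 0.71 ± 0.27 at 12 months on day 3 (adjusted p = 0.042). The 12-month rise was not called after quantile normalization (0.75, adjusted p = 0.059). It was 0.45 (adjusted p = 0.26) without ipsilateral array 3, and it was called in 1 of 6 fits without an array.

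In the opposite hemisphere, Tgfbr1, Smad2 and Smad4 were lower than sham at 3 months, and no gene was called at 12 months. At 3 months, 4 of the 8 genes were called on day 3 (51.6% of all genes) and 3 on day 14 (38.7%). At 12 months 0 were called on either day, where limma called 1.28% and 0.00857% of all genes at an adjusted p under 0.05. At an unadjusted p under 0.05 the count of the 8 genes was also 0 on both days. Tgfbr1 held 10.62, 10.37 and 10.51 in contralateral arrays of 3 months and day 3 against 10.95, 10.92 and 11.07 in sham, and fell by 0.48 ± 0.08 (adjusted p = 2.4e-05). On day 14 it fell by 0.41 ± 0.08 (adjusted p = 0.00038). Smad4 fell on both days, at -0.50 ± 0.10 and -0.37 ± 0.10, and Smad2 fell by 0.27 ± 0.07 on both days. Tgfbi rose by 0.68 ± 0.27 on day 3 (adjusted p = 0.037), a call lost when any of 4 of the 6 arrays was left out.

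These 3-month differences of the opposite hemisphere depended on the scaling of the arrays. After quantile normalization Smad2 stood at 0.13 and 0.02 and so changed sign, Smad4 stood at -0.10 and -0.08, and neither was called. Tgfbr1 stood at -0.27 (adjusted p = 0.0058) on day 3 and at -0.16 (adjusted p = 0.12) on day 14. Smad7 went from -0.31 (adjusted p = 0.058) and -0.20 (adjusted p = 0.26) to 0.08 and 0.10, uncalled throughout, and Tgfbi on day 3 from 0.68 to 0.56 (adjusted p = 0.15). Tgfb1, at 0.04 and 0.01 in the deposited values, stood at 0.38 (adjusted p = 0.0032) and 0.29 (adjusted p = 0.033), and Smad3 stood at 0.23 (adjusted p = 0.0497) and 0.27 (adjusted p = 0.033). On day 14 the calls thus went from 3 lower genes to 2 higher genes. Other receptors of the family moved alike in the deposited values, with 6 and 5 of 9 tested lower (37.2% and 28.4% of all genes) and a median change of -0.46 and -0.30, where the median of all genes was -0.10 and -0.06. After quantile normalization 4 and 3 of them were lower and 1 and 2 higher, with medians of -0.15 and -0.10.

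Between day 3 and day 14, injured-side microglia of 3-month rats changed in 7 of the 8 genes, of which 6 rose and 1 fell, beside 29.6% of all genes (22.0% higher, 7.51% lower). Tgfb1 rose by 0.56 ± 0.11, Smad7 by 0.51 ± 0.14, Tgfbr1 by 0.46 ± 0.08, Smad2 by 0.38 ± 0.07, Smad3 by 0.32 ± 0.09 and Smad4 by 0.30 ± 0.10. Tgfbi fell by 1.74 ± 0.27 (adjusted p = 1.8e-05). Quantile normalization left 4 called, and Smad3 (0.20), Smad4 (0.12) and Smad7 (0.36, adjusted p = 0.050) lost their calls. The Smad7 call was also lost without ipsilateral array 2 of day 3 (0.38, adjusted p = 0.063), and the Smad4 call without array 3 of day 3 (0.29, adjusted p = 0.051) or array 1 of day 14 (0.26, adjusted p = 0.089). The code number differs between these days at 3 months and cannot be told apart from the day.

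At 12 months 2 genes were called between the days on the injured side, both higher on day 14, beside 20.6% of all genes (6.53% higher, 14.1% lower). Smad3 rose by 0.56 ± 0.09 (adjusted p = 3.1e-05), from 6.43, 6.50 and 6.47 to 7.00, 7.09 and 6.99, a gap far wider than the spread on either day. Smad7 rose by 0.49 ± 0.14 (adjusted p = 0.011), a call lost without array 1 or 3 of day 3 or array 3 of day 14 (adjusted p of 0.055 to 0.061). Tgfbr1 at 0.23 ± 0.08 (adjusted p = 0.056) and Tgfbi at -0.73 ± 0.27 (adjusted p = 0.058) lay just outside the threshold. Quantile normalization kept both calls and added higher Tgfb1 (0.33, adjusted p = 0.0165), Tgfbr1 (0.32, adjusted p = 0.0025) and Smad4 (0.29, adjusted p = 0.018). The number of genes called on the injured side at each age thus depended on the scaling of the arrays. On the opposite side 0 of the 8 genes were called between days at either age, also at an unadjusted p under 0.05 (10.1% and 1.06% of all genes at the adjusted threshold).

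The difference between the hemispheres itself differed between days in a few genes. At 3 months 3 genes were called (3.81% of all genes). Tgfb1 differed by 0.60 ± 0.16 (adjusted p = 0.029), with its hemisphere difference going from -0.19 to 0.40. Smad2 differed by 0.39 ± 0.10 (adjusted p = 0.032) and Tgfbi by -1.38 ± 0.39 (adjusted p = 0.038). With the animal as a block, Tgfb1 kept its call and those of Smad2 (adjusted p = 0.082) and Tgfbi (adjusted p = 0.078) ended. With each of 12 arrays left out in turn, Tgfb1 was called 6 times, Smad2 4 times and Tgfbi 1 time, and without ipsilateral array 1 of day 3 the Tgfbi value was -0.80 (adjusted p = 0.073). In a model of the compared arrays only, none of the 3 was called (adjusted p of 0.16 to 0.20). Quantile normalization kept Tgfb1 (0.54, adjusted p = 0.024) and Tgfbi (-1.48, adjusted p = 0.047) and lost Smad2 (0.32, adjusted p = 0.079).

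At 12 months Smad3 alone of the 8 genes was called (5.34% of all genes). Its hemisphere difference went from -0.21 on day 3 to 0.31 on day 14, a difference of 0.51 ± 0.13 (adjusted p = 0.014) that was called in each of the 12 fits without an array. Tgfb1 differed by 0.32 ± 0.16 (adjusted p = 0.31), and by 0.46 (adjusted p = 0.0535) after quantile normalization. Smad7 differed by 0.40 ± 0.19 at 3 months (adjusted p = 0.29) and by 0.40 ± 0.19 at 12 months (adjusted p = 0.30), so a narrowing of its gap between the days was not called at either age.

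Between the ages, 0 of the 8 genes were called for a different hemisphere difference on day 3 or day 14 (1.58% and 0.00857% of all genes). At an unadjusted p under 0.05 the counts were 1 (Smad2) and 0. For Smad7 the 12-month minus the 3-month difference was 0.10 with 95% intervals of -0.30 to 0.50 on day 3 and -0.29 to 0.50 on day 14, which leaves room for a difference of either sign. In sham arrays 0 genes were called between 12 and 3 months (13.0% of all genes), and 1 (Smad3, 0.23 ± 0.09) had an unadjusted p under 0.05. Without 12-month sham array 2, Smad3 was called (0.31 ± 0.10, adjusted p = 0.044).

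Around these genes, the release of the ligand was represented by 19 listed genes, of which 13 were tested. In the order 3 months days 3 and 14, then 12 months, 3, 2, 5 and 3 rose and 1, 0, 0 and 0 fell between hemispheres. The shares of all genes called, for this and the following lists, were 11.5%, 13.2%, 18.7% and 10.9% higher and 8.95%, 7.09%, 10.0% and 5.94% lower. Those of the release genes were 23.1%, 15.4%, 38.5% and 23.1% higher, and at 12 months on day 3 the count went from 5 higher to 3 higher and 1 lower after quantile normalization. Furin, the protease that cleaves the ligand precursor, rose by 0.70 ± 0.13, 1.00 ± 0.13 and 0.73 ± 0.13 in all but the comparison of 3 months and day 14 (0.33 ± 0.13, adjusted p = 0.075). Bmp1, a protease that cuts latent complexes from the matrix, rose by 0.37, 0.59 and 0.92 (each ± 0.13) in all but that of 3 months and day 3 (0.27, adjusted p = 0.15). The smallest of these, at 3 months on day 14, was called in 3 of 6 fits without an array (0.19, adjusted p = 0.30, without ipsilateral array 2). Thbs1, the activator thrombospondin-1, rose on day 3 by 2.09 ± 0.39 and 1.25 ± 0.39 and stood at -0.05 and 0.00 on day 14. Its 3-month ipsilateral arrays of day 3 held 8.83, 6.75 and 5.63, the order that Tgfbi and the monocyte and macrophage markers had. Without ipsilateral array 1 the 3-month rise of Thbs1 was 1.21 ± 0.23 (adjusted p = 0.00033), and without ipsilateral array 3 the 12-month value was 0.86 (adjusted p = 0.14). Mmp14, a membrane protease, rose on day 3 by 1.32 ± 0.25 and 0.66 ± 0.25. Without ipsilateral array 1 the 3-month rise was 0.78 ± 0.16 (adjusted p = 0.00066), and the 12-month call was lost after quantile normalization and in 6 of 6 fits without an array.

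Among the other receptors of the family, 9 of 12 listed genes were tested and 0, 1, 1 and 1 rose while 1, 2, 3 and 1 fell. The lower genes made up 11.1%, 22.2%, 33.3% and 11.1% of the list, and after quantile normalization their count at 3 months on day 3 was 3. Bambi, a pseudoreceptor without a kinase that damps the signal, fell in each comparison, at -0.81, -0.37, -0.71 and -0.66, each ± 0.11, where the second was lost without contralateral array 3 (-0.33, adjusted p = 0.054) or ipsilateral array 2 (-0.25, adjusted p = 0.11). On day 3 at 3 months its ipsilateral signals were 6.75, 6.82 and 7.11 against 7.69, 7.74 and 7.70. The groups lay wide apart. Eng, the coreceptor endoglin, stood at -0.05 ± 0.08 at 3 months on day 3 and rose by 0.67, 0.30 and 0.50 (each ± 0.08) in the others. Acvr1b, an activin receptor, fell at 3 months on day 14 (-0.55 ± 0.09), and Acvr2a, its type 2 partner, fell at 12 months on day 3 (-0.39 ± 0.12; -0.29, adjusted p = 0.10, without ipsilateral array 3).

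Of 20 other Smads and Smad regulators 16 were tested, and 3, 3, 2 and 2 rose while 2, 2, 3 and 2 fell. That is 12.5% to 18.8% of the list in each direction, beside 10.9% to 18.7% higher and 5.94% to 10.0% lower among all genes, and after quantile normalization 4 fell at 3 months on day 3. Dab2, an endocytic adaptor that links the receptors to Smads, rose by 2.49, 1.46, 3.11 and 1.82, each ± 0.22. Its ipsilateral signals of day 3 were 9.80, 9.43 and 9.44 at 3 months and 9.74, 9.48 and 9.79 at 12 months, and its sham signals ran from 6.31 to 7.14, so no array of these groups overlapped. Fkbp1a, which holds the type 1 receptor inactive, rose by 0.72, 0.54, 0.92 and 0.60, each ± 0.11. Nedd4l and Smurf2 are ubiquitin ligases that act on Smads. Nedd4l fell throughout, at -0.50, -0.55, -0.71 and -0.45 (each ± 0.11), and Smurf2 fell at 12 months, at -0.29 and -0.30 (each ± 0.10), calls that held in 0 and 1 of 6 fits without an array.

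Of 18 other ligands and antagonists 14 were tested, with 1, 0, 0 and 1 higher and 0, 1, 1 and 1 lower. A single gene is 7.14% of this list, below each share of higher genes among all genes, and the shares of lower genes were 5.94% to 10.0%. Grem1, an antagonist of bone morphogenetic proteins, fell, at -0.79, -0.84 and -0.77 (each ± 0.11), in all but the comparison of 3 months and day 3 (-0.17). On 12-month ipsilateral arrays of day 3 it held 4.05, 4.04 and 3.92, below the 30th percentile of those arrays (4.07 to 4.09). Gdf15, a stress-induced ligand, rose by 0.69 ± 0.15 at 3 months on day 3 and by 1.27 ± 0.15 at 12 months on day 14. Bmp7 and Fst, a ligand and an antagonist of activins, were not called, with values of -0.20 to -0.14 and -0.23 to -0.08. Bmp7 lay at 4.15 to 4.79 and Fst at 3.81 to 4.45 over the arrays, near the 30th percentiles (4.07 to 4.35). A change in probe sets this dim may not be detectable.

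Of 22 listed TGF-beta target genes 18 were tested. In the 4 comparisons 3, 3, 2 and 2 rose and 2, 1, 2 and 1 fell, or 11.1% to 16.7% and 5.56% to 11.1% of the list, beside 10.9% to 18.7% and 5.94% to 10.0% of all genes, with medians of -0.01, -0.02, -0.10 and 0.01 beside -0.01 for all genes. After quantile normalization 1 rose and 4 fell at 12 months on day 3. Timp1, which inhibits matrix metalloproteinases, rose by 2.20, 1.66, 3.21 and 2.02, each ± 0.15. Klf10, a transcription factor that TGF-beta induces early, fell, at -0.59, -0.68, -0.67 and -0.81, each ± 0.11. Fn1, the matrix protein fibronectin, rose on day 3 by 2.02 ± 0.40 and 1.04 ± 0.40 (the second not called after quantile normalization, at 0.96, and called in 1 of 6 fits without an array), and it is also on the list of monocyte and macrophage markers. Without ipsilateral array 1 its 3-month rise was 1.15 ± 0.25 (adjusted p = 0.0017), the arrays holding 8.72, 6.91 and 5.30. Bhlhe40, a transcription factor, rose on day 14 by 0.67 and 0.57, each ± 0.14.

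A further list held 20 microglia genes that depend on TGF-beta, 17 of them tested. Of these, 12, 10, 14 and 11 fell (70.6%, 58.8%, 82.4% and 64.7%, against 8.95%, 7.09%, 10.0% and 5.94% of all genes) and 0, 1, 0 and 1 rose, with medians of -0.56, -0.30, -0.44 and -0.46 where all genes had -0.01. After quantile normalization 13, 12, 14 and 13 fell. Gpr34, a lysophospholipid receptor of microglia, fell, at -0.79, -0.65, -0.58 and -1.08, each ± 0.13. P2ry12, an ADP receptor of resting microglia, fell, at -0.78, -0.47, -0.69 and -0.79, each ± 0.11. Tmem119 and P2ry13 fell in each comparison too, at -1.52 to -1.36 and at -1.28 to -0.90. On the opposite side at 12 months 0 of the 17 were called against sham on either day, where 1.28% and 0.00857% of all genes were. At 3 months 7 and 8 fell and 1 and 0 rose there (51.6% and 38.7% of all genes called), and after quantile normalization 3 and 2 fell and 4 and 1 rose. Several of these genes also serve as microglia markers, so a smaller share of microglia and a lower level per cell cannot be told apart here. This list, like those above, was chosen with earlier results of these data known. Its shares beside those of all genes are therefore a description and not a test.

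**Figure D4:**
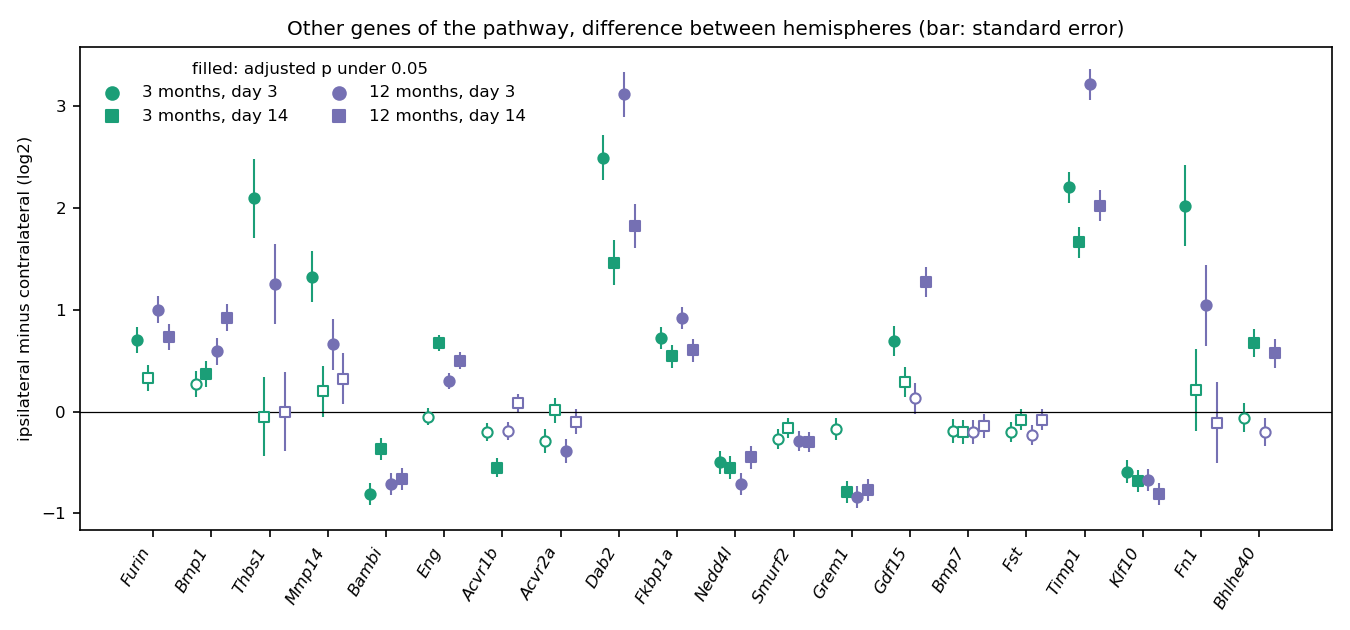
Ipsilateral minus contralateral log2 signal of 20 other genes of the pathway in 4 comparisons by age and day. Points are differences of 2 means of 3 arrays, bars are limma's standard errors, and filled points have an adjusted p under 0.05. Dab2 and Timp1 lie above 1 in each comparison, Bambi, Nedd4l and Klf10 lie below 0 with filled points, and Thbs1 and Fn1 are filled on day 3 only.

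The genes most like a member in pattern were found for the 3 genes whose group means span over 1 log2 unit, by Pearson's r over the 10 group means. Points share arrays and scaling, so r is a description. For Smad7 these were Sspn (0.993), Ptgs1 (0.988) and Il6st (0.987). For Tgfbr1 they were Itm2b (0.989), Hsp90ab1 (0.989) and Sf1 (0.988), and its r was 0.962 with Smad2 and 0.918 with Smad7. For Tgfbi they were Clec10a (0.983), Colec12 (0.967) and Thbs1 (0.953).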

How the data were processed

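Total microglial RNA of 30 samples was measured on Affymetrix Rat Gene 1.0 ST arrays. The authors deposited log2 expression values of 29214 probe sets, made with Affymetrix Expression Console and RMA (versions unstated), per the submitters' processing notes. Precision is limited by the number of arrays. Names came from the platform annotation (15310 probe sets with 1 symbol, 323 with several, 13581 not listed). A probe set was kept where it lay above its array's 30th percentile on at least 3 arrays, and each gene entered the test once, through its brightest probe set on average.

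Differences were tested with limma 3.58.1 (R 4.3.3; lmFit and eBayes) on 10 group means over 30 arrays (degrees of freedom: 20 residual, 8.8 prior) in 21 comparisons, and the Benjamini-Hochberg adjustment ran over the 11675 genes of each. The fit was tested on simulated data with changes added to the ipsilateral arrays of 3 months and day 3. Against the contralateral arrays it called 56% of changes of 0.4 log2, 76% of 0.6 and 99% of 1, with 8 false calls. A change of the smaller sizes can thus go uncalled. The changes were added to 50, 50 and 100 genes of these sizes, with equal noise in all groups. In the real comparison 2384 genes were called and spreads differed between groups, so the shares there may differ. Hemispheres that share age, day and replicate number were paired as 1 animal. Their deviations from the group means correlated at -0.08 to 0.21 (0.072 by duplicateCorrelation), and a replicate block for the animal was an alternative, as were no filter and a stricter filter on dim probe sets, the mean of a gene's probe sets, quantile normalization, the compared arrays only, a same-animal correlation and leaving out each array. The genes and lists were chosen with earlier results of these data known. From each list up to 4 genes were named, those called in the most hemisphere comparisons, ties by the largest mean change.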

Additional observations from a re-analysis of the deposited data

Results flagged for a closer look

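In 4 cases the hemisphere difference of a TGF-beta gene differed between day 14 and day 3 by a test of that difference itself (limma's adjusted p). At 3 months the day 14 minus day 3 value was 0.60 for Tgfb1 (adjusted p = 0.029), 0.39 for Smad2 (adjusted p = 0.032) and -1.38 for Tgfbi (adjusted p = 0.038). With the animal as a replicate block Smad2 (adjusted p = 0.082) and Tgfbi (adjusted p = 0.078) were not called, and with the compared arrays only none of the 3 was (adjusted p of 0.16 to 0.20). After quantile normalization Smad2 was not called (0.32, adjusted p = 0.079). At 12 months the day 14 minus day 3 value was 0.51 for Smad3 (adjusted p = 0.014).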

How the results depend on the processing

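No filter, a mean of probe sets and the same-animal correlation each kept every count of called TGF-beta genes within 1.5 times. Quantile normalization changed the count from 2 to 4 between hemispheres at 12 months on day 3, from 7 to 4 between days on the injured side at 3 months and from 2 to 5 at 12 months, where the stricter filter gave 4. For the day difference of the hemisphere gap at 3 months, the count of 3 became 0 with the compared arrays only and 1 with the replicate block for the animal, where Smad2 and Tgfbi lost their calls. The block changed no other call of a hemisphere comparison. Quantile normalization turned the sign of Smad2 in contralateral arrays against sham at 3 months (0.13 on day 3, 0.02 on day 14), and of Smad3 on day 3 at 3 months against sham, to 0.22 for ipsilateral and 0.23 for contralateral arrays. Against sham at 3 months it also turned uncalled values, Tgfb1 on the injured side on day 3 (-0.15 to 0.19) and Smad7 on the opposite side (-0.31 to 0.08 and -0.20 to 0.10). The cause was not tested. With each array left out in turn, the counts ran from 1 to 2 between hemispheres at 3 months on day 14, 2 to 4 at 12 months on day 14, 2 to 4 for ipsilateral against sham at 12 months on day 14, 1 to 3 between days on the injured side at 12 months, 0 to 1 between ages in sham, and 0 to 3 for the day difference of the hemisphere gap at 3 months. Counts of 0 in the other comparisons stayed at 0. Further counts moved too, among them 3 to 6 for contralateral against sham at 3 months on day 3. Others were 4 to 6 for ipsilateral against sham at 3 months on day 14 and 2 to 3 between hemispheres at 12 months on day 3. Tgfb2 and Tgfb3 lie at the dim end of the arrays, which limits what a test can show.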
